A study of Arabidopsis with 12 samples.

Results

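Transcript levels after 2 h of shade were compared, gene by gene, between whole Arabidopsis seedlings of the wild type and of a mutant in the transcription factor gene bZIP59. The comparison took in every gene averaging 1 TPM or more over the 6 shade libraries, which gave 19551 of the 32833 genes in the table. TPM is transcript abundance scaled for transcript length and for the library total. The wild type was Col-0, and the mutant was bzip59, the T-DNA insertion line SALK_024459, a single insertion line. All seedlings grew for 7 days in continuous white light, and the shade groups of both genotypes then received the same shade, in which the red to far-red ratio was 0.65. RNA-seq gave 3 libraries for each genotype in shade and 3 for each genotype kept in white light, 12 libraries in all. The white-light libraries served for an estimate of spread and for a side-by-side look at the same genes.

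Shade from neighbouring plants lowers the ratio of red to far-red light, which phytochrome photoreceptors sense. Phytochrome B then loses activity, the PIF transcription factors (phytochrome-interacting bHLH proteins) are released, and genes for auxin synthesis, cell wall loosening and negative feedback are switched on within hours. bZIP59 is a leucine zipper factor of the plant group I bZIP family, whose best known member is VIP1, and bZIP59 is also known for acting with LBD proteins when leaf tissue forms callus.

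Genotype changed few transcripts in shade. With limma on log2(TPM + 1), 8 of 19551 genes passed an adjusted p of 0.05 (Benjamini-Hochberg), which is 0.0409% of the genes tested. Of these, 4 were higher in bzip59 and 4 were lower. The higher genes were AT1G75945, AT4G06665, AT3G57940 and AT1G67105, and the lower ones were bZIP59 itself, ROC4, QQS and AT1G27565. The filter used the mean over both genotypes, so a gene could pass through the values of 1 genotype alone. AT1G75945, AT4G06665 and AT3G57940, at Col-0 shade means of 0.53, 0.00 and 0.29 TPM, passed through the mutant libraries. AT1G27565, at a bzip59 shade mean of 0.11 TPM, passed through the Col-0 libraries. Most other genes lay close to the wild-type level: the absolute log2 difference had a median of 0.10, and 95.6% of genes differed by less than 0.5. The median 95% confidence interval reached 0.41 to either side, and the smallest difference called was 1.28, so smaller changes were mostly not detectable with 3 libraries per group. At an unadjusted p under 0.05 there were 537 genes (2.75%), and the 3 bzip59 values lay wholly above the 3 Col-0 values in 894 genes (4.57%) and wholly below in 1012 genes (5.18%). Nothing in the labels states that replicate libraries are separate cultures, and the p-values therefore measure only the spread between these samples.

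**Figure D1:**
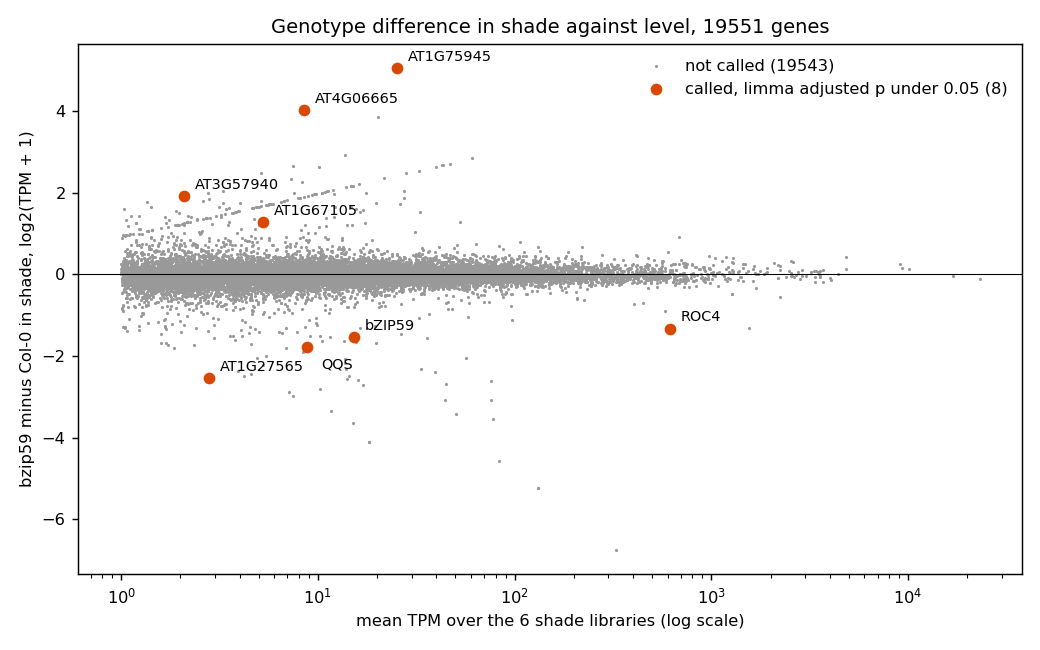
Each point is a gene, with its mean level over the 6 shade libraries on a log scale (horizontal) against the log2(TPM + 1) difference bzip59 minus Col-0 in shade (vertical). The 8 called genes are labelled, and the slanted rows of uncalled points above 0 come largely from the 89 genes with a value in bzip59 shade 2 alone.

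The targeted gene was examined first. bZIP59 (AT2G31370, listed as POSF21) stood at 26.3, 23.1 and 19.9 TPM in the Col-0 shade libraries and at 7.52, 6.15 and 8.32 TPM in the bzip59 shade libraries. Every mutant library was lower than every wild-type library, and the mutant mean of 7.33 ± 1.1 TPM (SD, n = 3) was 31.7% of the Col-0 mean of 23.1 ± 3.23 TPM. The difference was -1.53 on the log2(TPM + 1) scale (SE 0.18, limma adjusted p = 0.00895), so the label of the mutant held while a residual transcript remained. In white light the residue was smaller, at 3.85, 5.47 and 3.12 TPM against 17.5, 22.6 and 21.6 TPM in Col-0, or 20.2% of the wild type (log2 -2.09, limma adjusted p = 0.00125). The difference between the lights was not called (interaction 0.55, 95% interval -0.02 to 1.12, limma adjusted p = 0.62). The call in shade was lost without Col-0 shade 2 (limma adjusted p = 0.056), without bzip59 shade 1 (0.0629) and without bzip59 shade 2 (0.117), and with the 6 shade libraries alone (0.0575), while the log2 difference stayed between -1.63 and -1.43 when any library was left out.

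The 7 annotated transcripts of bZIP59 were not lowered alike. Transcript 7 carried 14.8, 15.8 and 8.84 TPM in Col-0 shade, or 57% of the gene's level, and was listed at 0 in all 3 bzip59 shade libraries. Transcript 4 followed the same direction, at 7.59, 4.78 and 5.49 TPM in Col-0 and 0.60, 1.07 and 1.71 TPM in bzip59. Transcript 1 did not: it was at 0.00, 0.66 and 4.49 TPM in Col-0 shade and at 4.28, 4.40 and 5.66 TPM in bzip59 shade, where it made up 65.2% of what was left. Its groups overlapped, because 1 Col-0 library was as high as the mutant ones. Transcript 5 was also higher in the mutant, at 0 in all 3 Col-0 shade libraries and at 2.06, 0.18 and 0.37 TPM in bzip59 shade. Transcript 2 was at 0.00, 0.29 and 0.00 TPM against 0.58, 0.00 and 0.58 TPM. Transcripts 3 and 6 were lower in the mean, at 1.03 and 1.13 TPM in Col-0 shade and 0.06 and 0.11 TPM in bzip59 shade. Division of reads between overlapping transcripts is an estimate by the authors' software, so the transcript values are given without a test.

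**Figure D2:**
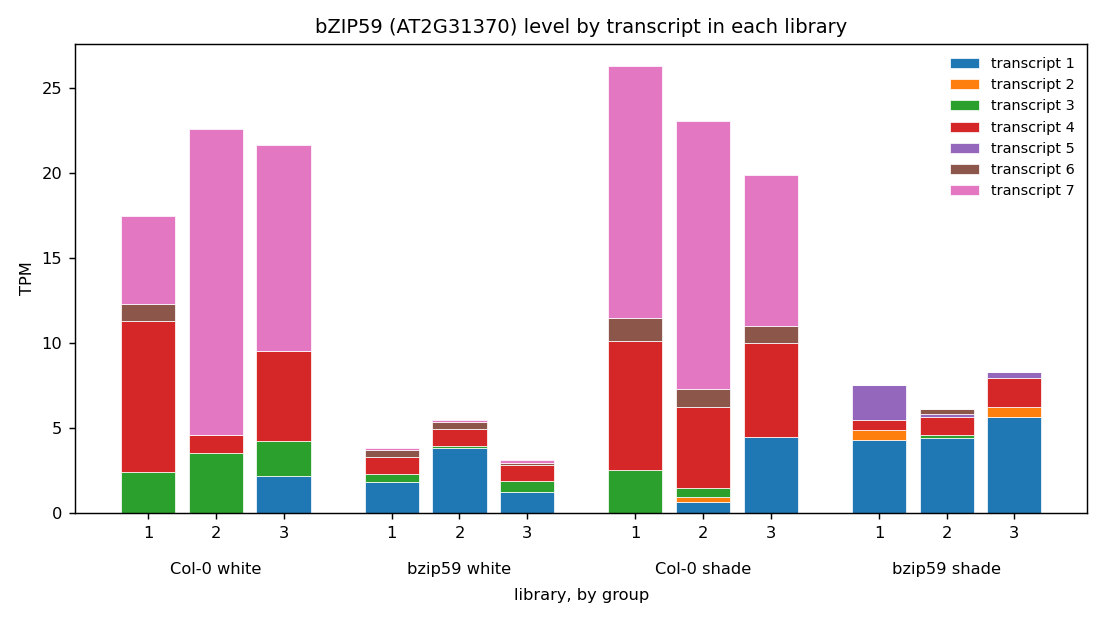
Stacked bars give the TPM of the 7 annotated bZIP59 transcripts in each of the 12 libraries, with the 3 libraries of a group side by side. Transcript 7, the upper segment of the Col-0 bars, is missing from the bzip59 shade bars, where transcript 1 is the main segment.

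The largest difference among called genes was at AT1G75945, a protein-coding gene with no description in the authors' table. It was nearly silent in Col-0 shade, at 0.59, 0.47 and 0.54 TPM, and reached 46.0, 51.2 and 51.8 TPM in bzip59 shade. The groups were far apart, by 93.2-fold over a Col-0 mean of only 0.53 TPM (log2 5.05, SE 0.18, limma adjusted p = 9.70e-08). White-light libraries showed the same split, with 0.41, 0.00 and 0.50 TPM in Col-0 and 34.2, 49.6 and 35.9 TPM in bzip59 (log2 4.97, limma adjusted p = 1.14e-07). Among the 8 called genes it alone kept its call in all 26 alternatives that could test it. Its neighbour SKP1A, a subunit of SCF ubiquitin ligases, differed by 0.06 on the log2 scale (188 against 196 TPM, limma adjusted p = 1).

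AT3G57940 is annotated as RNA cytidine acetyltransferase 2, related to the yeast enzyme that acetylates cytidines in ribosomal and transfer RNA. Its level was 0.04, 0.26 and 0.58 TPM in Col-0 shade and 3.19, 4.62 and 3.76 TPM in bzip59 shade. No mutant library came near the wild-type range, and the bzip59 mean was 13.1-fold a Col-0 mean of only 0.29 TPM (log2 1.92, SE 0.21, limma adjusted p = 0.0064). The rise was equally present in white light, at 0.15, 0.18 and 0.12 TPM against 4.33, 2.83 and 3.95 TPM (log2 2.02, limma adjusted p = 0.00509). The paralog AT1G10490, RNA cytidine acetyltransferase 1, was chosen for comparison after its values were seen: it had 9.96, 5.47 and 5.13 TPM in Col-0 shade and 5.36, 8.13 and 5.68 TPM in bzip59 shade, so its groups overlapped (log2 -0.05, 95% interval -0.64 to 0.53). Values of such close copies are uncertain where reads can be shared between them. With only the 6 shade libraries in the fit, AT3G57940 lost its call (limma adjusted p = 0.17, range over alternatives 0.00282 to 0.703).

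AT1G67105, a non-coding RNA, was the smallest of the 4 rises. It was at 1.94, 3.23 and 2.83 TPM in Col-0 shade and at 7.81, 7.87 and 7.76 TPM in bzip59 shade, 2.93-fold higher in the mean. The mutant libraries were nearly identical and all above the wild type (log2 1.28, SE 0.17, limma adjusted p = 0.0218). In white light the order was the same, with 4.66, 4.69 and 3.75 TPM in Col-0 and 7.62, 11.1 and 10.2 TPM in bzip59, but the difference of 0.98 did not pass (limma adjusted p = 0.129). Its call was the least stable, held in 12 of 25 alternatives: it was lost with TMM factors (limma adjusted p = 0.152), with quantile normalization (0.264), without the filter (0.0508), without Col-0 shade 1 (0.0632) or 3 (0.091), without bzip59 shade 1 (0.134), 2 (0.193) or 3 (0.114), and without Col-0 white light 1 (0.0533) or bzip59 white light 3 (0.0589).

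The remaining rise, AT4G06665, appeared in the mutant's shade libraries and nowhere else at that level. This long non-coding RNA had listed values of 0 in the 3 Col-0 shade libraries and 20.1, 7.33 and 23.8 TPM in bzip59 shade. The groups did not overlap (log2 4.03 with the pseudocount of 1, SE 0.41, limma adjusted p = 0.00544), and no fold is given against values of 0. The call was lost with the 6 shade libraries alone (limma adjusted p = 0.0575) and with the replicate block in those libraries (0.321). In white light it was at 1.43, 0.00 and 0.00 TPM in Col-0 and at 0 in all bzip59 libraries, which makes it the called gene whose difference did not recur in white light. The interaction was 4.46, the smallest in p of all genes, but was not called after adjustment (limma adjusted p = 0.145). AT4G06665 overlaps BAM3, a chloroplast beta-amylase of starch breakdown, in the reference annotation. Strandedness was not stated, so reads of the overlapping pair cannot be told apart. BAM3 itself stood at 113 TPM in Col-0 shade and 135 TPM in bzip59 shade (log2 0.36, limma adjusted p = 1).

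Among the genes that fell, ROC4 (AT3G62030) had the highest level. It encodes a cyclophilin of the chloroplast stroma, a peptidyl-prolyl isomerase that assists protein folding. Its level was 739, 988 and 930 TPM in Col-0 shade and 329, 385 and 337 TPM in bzip59 shade. The groups were well separated, and the mutant mean was 39.5% of the wild type (log2 -1.33, SE 0.14, limma adjusted p = 0.00544). In white light ROC4 fell to 48.4% of Col-0, from 840, 902 and 695 TPM to 368, 392 and 420 TPM (log2 -1.04, limma adjusted p = 0.0391). Nearly all of the level, 99.9%, came from transcript 1 in both genotypes in shade. The call was lost with the 6 shade libraries alone (limma adjusted p = 0.0575, range over alternatives 0.00329 to 0.321).

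QQS (AT3G30720) is an orphan gene, found in this species without recognisable relatives elsewhere, and is known for an effect on starch content. It stood at 13.3, 13.1 and 15.9 TPM in Col-0 shade and at 3.09, 2.69 and 4.54 TPM in bzip59 shade. Mutant libraries were all lower, at 24.4% of the wild-type mean (log2 -1.78, SE 0.21, limma adjusted p = 0.00895). White light gave 18.9, 15 and 15.1 TPM against 2.65, 2.95 and 5.16 TPM, or 22% (log2 -1.95, limma adjusted p = 0.00601). Transcripts 1 and 2 fell together, from 6.67 ± 2.32 to 2.04 ± 0.26 TPM and from 7.11 ± 0.50 to 1.30 ± 0.96 TPM (SD, n = 3). Leaving out Col-0 shade 3 (limma adjusted p = 0.0709) ended the call, as did leaving out library 1 (0.0706) or 2 (0.117) of bzip59 shade, and so did the fit with the 6 shade libraries alone (0.0575).

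AT1G27565 encodes a protein of unknown function. It was at 4.37, 5.83 and 6.26 TPM in Col-0 shade and at 0.17, 0.16 and 0.00 TPM in bzip59 shade, or 2% of the wild-type mean. All mutant libraries were close to 0 (log2 -2.54, SE 0.30, limma adjusted p = 0.00895). The same pattern in white light, 2.35, 6.90 and 2.23 TPM against 0.17, 0.00 and 0.00 TPM, did not pass after adjustment (log2 -2.06, limma adjusted p = 0.0782). In shade the call was lost without Col-0 shade 2 (limma adjusted p = 0.0587) or 3 (0.0709) and without bzip59 shade 1 (0.0629), 2 (0.0735) or 3 (0.0677).

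**Figure D3:**
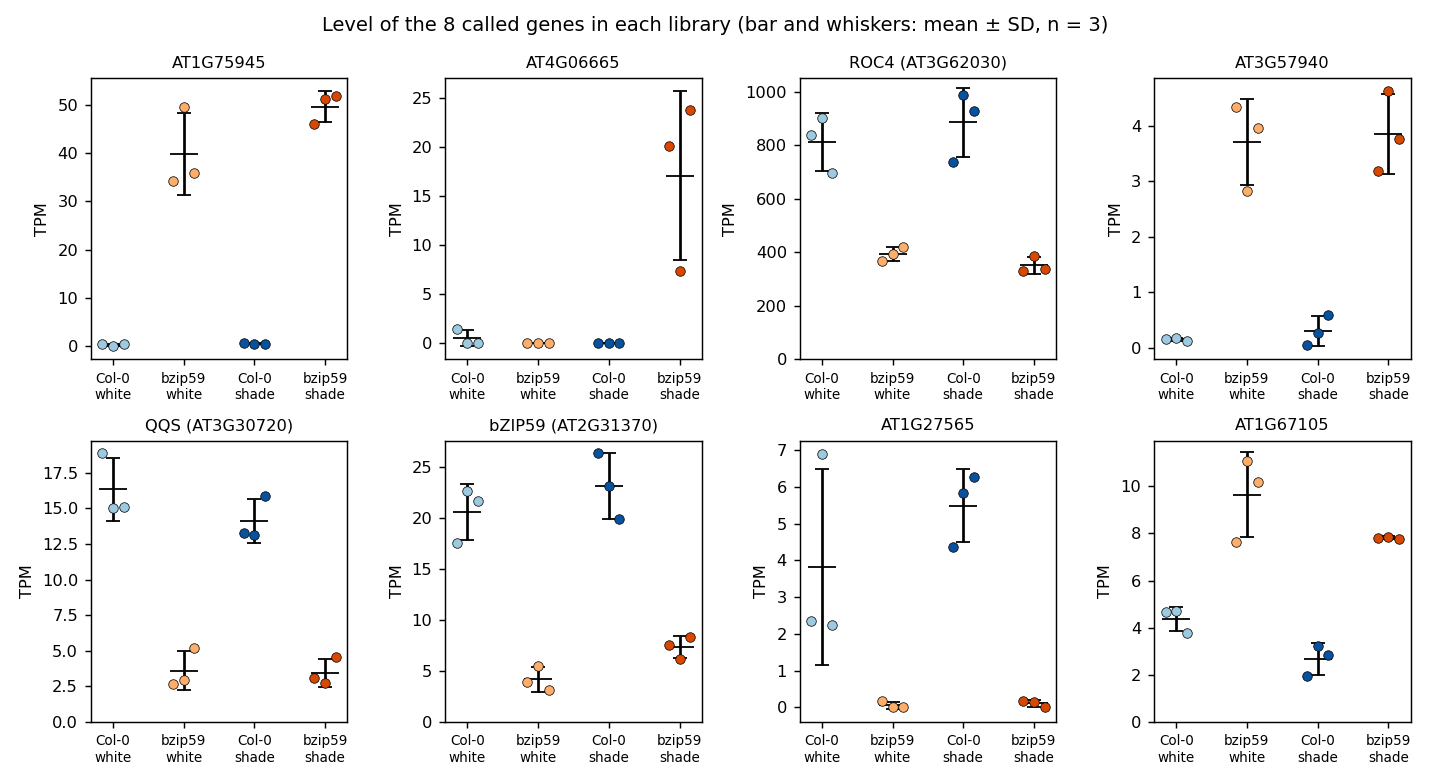
Each panel shows the level of a called gene in TPM, on its own axis, for the 3 libraries of Col-0 and bzip59 in white light and in shade, with the mean and SD. In 7 of the 8 panels the 2 genotypes separate the same way in both lights, and AT4G06665 is high in bzip59 shade only.

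White-light libraries are not part of the shade comparison, although both differences share the estimate of spread in the fit. In white light 5 of the 19551 genes (0.0256%) were called with limma, namely AT1G75945, AT3G57940, QQS, bZIP59 and ROC4. All 5 were among the 8 called in shade, which is 100% of the white-light calls and 62.5% of the shade calls. The 19551 genes were chosen by their mean in the shade libraries, so a gene present only in white light could not be called. Counting direction, 7 of the 8 shade calls had the same sign in white light, and in the same 7 the white-light libraries did not overlap either, where 18.4% of all genes had groups that did not overlap in white light. The median white-light difference of all tested genes was -0.16, and -0.02 with TMM factors, so white-light values are to be read against that shift. No gene was called for a difference between the lights (limma interaction, smallest adjusted p = 0.145). At an unadjusted p under 0.05 there were 1560 of the 19551 genes, beside 537 for the genotype difference in shade. The lack of calls therefore does not show that the genotype differences were equal in the 2 lights. Of the 8 genes called in shade, 3 were called in white light when bzip59 white light 2 was left out.

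The 10 genes next in order of p failed the test and are given as values. Their limma adjusted p ran from 0.37 to 0.754, 7 were higher in bzip59 and 3 lower, and all 10 had groups that did not overlap, as the order by p favours. CSN1, a subunit of the COP9 signalosome that represses light responses in darkness, was at 10.4, 9.26 and 8.33 TPM in Col-0 shade and 4.08, 5.14 and 4.86 TPM in bzip59 shade (log2 -0.86, limma adjusted p = 0.381). In white light it leaned the other way (log2 0.25, 95% interval -0.10 to 0.61). AT1G48280 was at 5.60, 2.77 and 3.95 TPM against 0.89, 0.78 and 0.00 TPM (log2 -1.73, limma adjusted p = 0.37), again with no such difference in white light (log2 0.23). Its bzip59 shade mean was 0.56 TPM, so it passed the filter through the Col-0 libraries. The third gene with lower values in bzip59 was AT3G51660 (log2 -0.49).

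Among those with higher values, ICL, the isocitrate lyase of the glyoxylate cycle, was at 7.35, 1.76 and 4.49 TPM in Col-0 shade and 22.2, 25.9 and 11 TPM in bzip59 shade. Each mutant library exceeded each wild-type library (log2 1.96, limma adjusted p = 0.443), and the white-light difference had the same sign (log2 1.09, limma adjusted p = 0.258). Malate synthase (MLS), the other enzyme specific to that cycle, was looked up after the values were seen: it had 5.35, 3.39 and 4.44 TPM in Col-0 shade and 10.4, 11.9 and 6.0 TPM in bzip59 shade (log2 0.92, limma adjusted p = 1). In white light MLS differed by 0.19 (limma adjusted p = 0.765), with means of 8.40 TPM for Col-0 and 9.56 TPM for the mutant. MED37B, an HSP70 protein of the endoplasmic reticulum also known as BiP3, was at 0.29, 0.16 and 0.90 TPM against 3.33, 3.75 and 1.59 TPM (log2 1.41, limma adjusted p = 0.381). AT3G22235, a small cysteine-rich membrane protein linked to stress tolerance, was at 26.1, 35.2 and 26.6 TPM against 44.9, 104 and 78.7 TPM. It had the largest white-light difference of these 10 genes (log2 1.28 in shade and 1.59 in white light, limma adjusted p = 0.754 and 0.129). EXPA3, an expansin that loosens cell walls, was at 33.3, 32.4 and 29.0 TPM against 40.9, 50.8 and 48.9 TPM (log2 0.55, limma adjusted p = 0.738). AT2G47020, annotated as a peptide chain release factor, was at 0.30, 0.64 and 0.42 TPM against 2.23, 3.91 and 3.84 TPM, but its annotation overlaps MIR408 and its white-light difference was -0.52. The long non-coding RNAs AT1G04357 and AT3G13061 had log2 differences of 1.59 and 1.33. MED37B, AT2G47020, AT1G04357 and AT3G13061 passed the filter through the mutant libraries, at Col-0 shade means of 0.45, 0.45, 0.00 and 0.60 TPM. AT1G04357 was called in 1 of 23 alternatives, without bzip59 white light 1 (limma adjusted p = 0.0456, range over alternatives 0.0456 to 1).

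**Figure D4:**
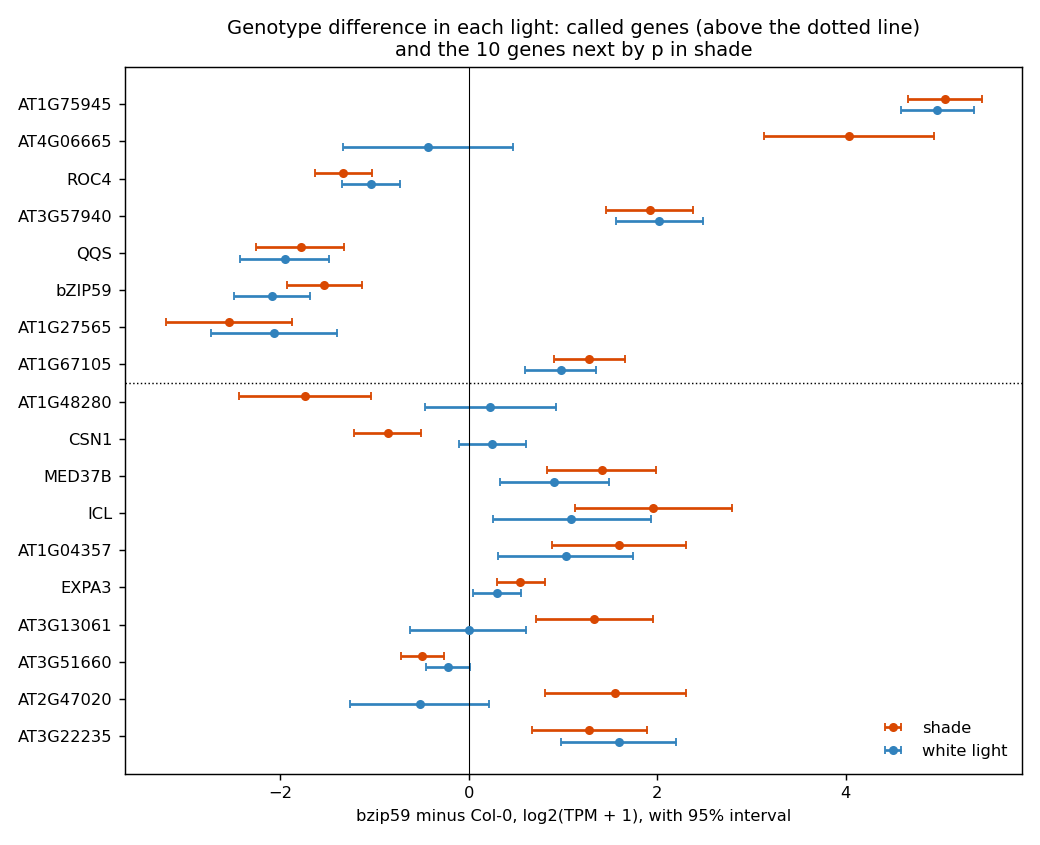
Points give the difference bzip59 minus Col-0 on the log2(TPM + 1) scale in shade and in white light, with 95% confidence intervals, for the 8 called genes above the dotted line and the 10 genes next by p below it. The paired intervals lie on the same side of 0 for 7 of the 8 called genes, and AT4G06665 differs in shade only.

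The called genes lay on 4 of the 5 chromosomes. There were 3 on chromosome 1, 1 on chromosome 2, 3 on chromosome 3, 1 on chromosome 4 and 0 on chromosome 5, from 5156, 2955, 3859, 2985 and 4532 tested. Of the 10 annotated genes on each side of bZIP59, 12 were tested. Among them 0 were called with limma and 1 had an unadjusted p under 0.05, beside 0.0409% and 2.75% of all genes tested. That gene was BBX25, the next gene after bZIP59, a B-box protein that restrains light-promoted development. BBX25 was at 33.8, 25.4 and 22.9 TPM in Col-0 shade and at 39.1, 42.0 and 42.7 TPM in bzip59 shade, with no overlap (log2 0.59, unadjusted p = 0.00293, limma adjusted p = 1). In white light it was at 48.5, 40.0 and 58.3 TPM in Col-0 and at 38.5, 39.2 and 41.1 TPM in bzip59, with the mutant on the lower side (log2 -0.28). The other tested neighbours differed by -0.07 to 0.27 on the log2 scale. On the other side, ADS2, a fatty acid desaturase, and GLX2-5, a mitochondrial glyoxalase, differed by 0.17 and -0.07. The second gene after bZIP59, the fructokinase AT2G31390, differed by 0.00.

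Several libraries stood apart within their groups, which bears on the gene lists that follow. Abscisic acid and dehydration genes summed to 1964, 763 and 821 TPM in Col-0 shade and to 666, 1855 and 636 TPM in bzip59 shade, so that Col-0 shade 1 and bzip59 shade 2 were each high in their group. Light-harvesting genes were low in the same libraries, at 30902, 45449 and 47698 TPM and at 42874, 32487 and 43023 TPM. Without these 2 libraries 9 genes were called, of which 4 were shared with the 8, and the log2 difference of bZIP59 was -1.33 (limma adjusted p = 0.327). The 5 others were the small non-coding genes AT1G05853, AT1G05917, AT1G11735, AT3G05715 and AT4G08755. Besides, 108 tested genes had a value in a single shade library, and in 89 of them that library was bzip59 shade 2. Of those 89 genes, 47 were snoRNAs, 23 tRNAs and 10 miRNA genes, and 0 were called. They made up 87 of the 181 genes whose log2 difference was at least 1. On the lower side 108 genes had a log2 difference of -1 or beyond.

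Gene lists for shade, hormones, light, clock, cell wall, nutrients, stress and tissue markers were then read by their counts. Of 361 list genes, 326 were tested and 1 was called, bZIP59 itself, beside 0.0409% of all genes tested. The 2 groups did not overlap in 9.82% of them, near the 9.75% of all genes, with 20 higher and 12 lower. Medians of the 30 lists lay above 0 in 14 and below 0 in 14, beside a median of -0.003 for all genes tested. Alternatives that change only the variance prior, the white-light libraries or the replicate block leave every shade log2 difference as it was. Only the other alternatives could move these medians, and ranges over the alternatives are to be read so.

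All 23 early shade avoidance genes were tested and 0 were called with limma, with 2 at an unadjusted p under 0.05. Over all genes tested, 0.0409% were called and 2.75% had an unadjusted p under 0.05. Groups did not overlap for 2 higher and 2 lower genes of the list, beside 9.75% of all genes. The median difference of the list was -0.10, from -0.69 for XTH15 to 0.59 for BBX25. Over the alternatives the median lay between -0.12 and 0.04. ATHB2, the homeodomain factor used as a standard shade marker, was at 97.4, 97.8 and 91.1 TPM in Col-0 shade and at 103, 73.8 and 105 TPM in bzip59 shade. The groups overlapped (log2 -0.04, 95% interval -0.40 to 0.32). Shade against white light changed 1916 genes (9.8%) in Col-0 and 1968 genes (10.1%) in bzip59, and ATHB2 rose in both, by 3.57 in Col-0 and 3.71 in bzip59 on the log2 scale (limma adjusted p = 2.07e-07 and 1.57e-07). The difference between these responses, which is the interaction, was 0.14 for ATHB2 (limma adjusted p = 0.834) and was called for 0 genes. The shade responses use the same shade libraries as the genotype difference. The auxin-responsive gene IAA29 was at 85.3, 118 and 113 TPM against 135, 103 and 143 TPM (log2 0.26), and IAA19 at 113, 135 and 159 TPM against 126, 93.6 and 145 TPM (log2 -0.17). Chosen after their values were seen, the bHLH genes PIL1 and HFR1, which act as brakes on PIF activity, differed by -0.21 and 0.02. The wall-modifying gene XTH15 was at 54.3, 70.5 and 94.3 TPM in Col-0 and at 53.8, 35.0 and 44.2 TPM in bzip59, lower in every mutant library but not called (unadjusted p = 0.0641).

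Hormone lists held no called gene with limma, and 1 jasmonate and 1 salicylate gene had an unadjusted p under 0.05. Over all genes tested the shares were 0.0409% and 2.75%. The 24 auxin response genes had a median of 0.03 between -0.39 for SAUR15 and 0.42 for IAA14. IAA2 was at 434, 538 and 495 TPM in Col-0 shade and at 532, 417 and 571 TPM in bzip59 shade. For auxin synthesis and transport the median was 0.02, with the efflux carriers PIN3 and PIN7 at log2 differences of 0.18 and 0.10. Medians were 0.04 for brassinosteroid, -0.00 for gibberellin, 0.08 for ethylene and -0.07 for cytokinin genes. The ethylene-forming enzyme gene ACO4 differed by 0.36, with overlapping groups. For salicylate and immunity genes the median was 0.04. The pathogenesis-related gene PR1, its highest member and chosen after its values were seen, was at 0.70, 0.00 and 0.63 TPM in Col-0 and at 1.67, 6.85 and 1.96 TPM in bzip59 (log2 1.49, limma adjusted p = 1).

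The summed levels of the jasmonate and abscisic acid lists were high in 1 shade library of each genotype. Jasmonate genes had a median of -0.19, which ranged from -0.53 to 0.19 over the alternatives, and their sums were 552, 241 and 240 TPM in Col-0 shade and 185, 435 and 233 TPM in bzip59 shade. The biosynthesis gene AOS was at 110, 40.1 and 40.3 TPM against 34.7, 72.3 and 44.8 TPM, high in Col-0 shade 1 and bzip59 shade 2. KIN2, a cold and drought protein of the abscisic acid list, was at 860, 277 and 265 TPM against 137, 769 and 129 TPM. The same libraries were high for the flavonoid enzyme CHS, at 273, 113 and 125 TPM against 133, 257 and 128 TPM, and for the sulfate reduction enzyme APR3, at 45.2, 19.2 and 21.6 TPM against 17.9, 43.5 and 21.4 TPM. Medians of these lists were -0.07 for abscisic acid, -0.16 for flavonoid and -0.15 for sulfur genes. Over the alternatives they ranged from -0.19 to 0.21, from -0.35 to 0.23 and from -0.57 to 0.09. Without Col-0 shade 1 and bzip59 shade 2 the medians were -0.03 for jasmonate, -0.05 for abscisic acid, -0.20 for flavonoid and -0.28 for sulfur genes.

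Light signalling and clock genes had medians slightly above 0 in shade. The 20 light signalling genes had a median of 0.09, between 0.03 and 0.14 over the alternatives. Of them, 3 were higher and 1 lower without overlap, 2 had an unadjusted p under 0.05 and 0 were called. Over all genes tested, 9.75% had groups without overlap and 2.75% an unadjusted p under 0.05. PHYA, the far-red photoreceptor, was at 52.5, 63.6 and 84.7 TPM against 61.3, 54.1 and 60.1 TPM, and the B-box factor BBX21 at 83.5, 64.6 and 79.8 TPM against 82.5, 73.3 and 80.5 TPM. Neither pair separated. PIF7, the PIF most tied to shade, was at 5.73, 5.58 and 6.20 TPM in Col-0 and at 8.61, 6.49 and 8.45 TPM in bzip59 (log2 0.36, unadjusted p = 0.0205, limma adjusted p = 1). HYH, a bZIP factor that promotes light responses, was at 43.9, 43.0 and 35.4 TPM against 52.6, 53.2 and 48.1 TPM (log2 0.33, unadjusted p = 0.0394). In white light both had the other sign (log2 -0.54 and -0.32). PIF4, a PIF that promotes elongation, was the lowest of the list, at 12, 11.5 and 16.9 TPM against 10.7, 7.36 and 12.6 TPM with overlapping groups (log2 -0.38, and -0.46 in white light). PIF7, HYH and PIF4 were chosen after their values were seen.

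The 17 clock genes had a median of 0.13 in shade, between 0.04 and 0.14 over the alternatives, beside -0.61 in white light. The morning gene CCA1 was at 33.9, 27.4 and 26.8 TPM in Col-0 shade and at 44.2, 30.2 and 43.8 TPM in bzip59 shade. Its groups overlapped (log2 0.40, 95% interval -0.03 to 0.82), and its white-light difference was -1.04. The repressor PRR7 was lowest in the list, at 10.7, 22.1 and 24.1 TPM against 14.9, 9.89 and 10.6 TPM (log2 -0.58). CDF1, which represses flowering, was highest, at 10.7, 6.76 and 8.42 TPM against 10.8, 12.6 and 12 TPM (log2 0.43, unadjusted p = 0.0205). Named as the most abundant, ELF4 and LNK2 differed by -0.03 and 0.23. CCA1, PRR7 and CDF1 were chosen after their values were seen, and 0 of 17 genes were called with limma, 2 having an unadjusted p under 0.05. Groups did not overlap for 2 higher and 2 lower genes of the list. Over all genes tested 0.0409% were called, 2.75% had an unadjusted p under 0.05 and 9.75% had groups without overlap.

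Expansins had the most genes of low p among the lists, though none passed. Of 13 tested, 4 had an unadjusted p under 0.05, beside 2.75% of all genes tested. The list came first of 30 by this count and was not tested as a set. Its median was 0.17, between 0.15 and 0.24 over the alternatives. EXPA4 was at 109, 77.7 and 99.2 TPM in Col-0 shade and at 71.8, 75.3 and 71.3 TPM in bzip59 shade, with the mutant lower (log2 -0.37). EXPA10 was on the other side, at 39.6, 43.2 and 37.2 TPM against 44.2, 48.5 and 51.1 TPM (log2 0.25), as was EXPA3. EXPA2 had the highest difference of the list at a low level, 1.25, 0.00 and 0.12 TPM against 2.02, 1.13 and 2.83 TPM with overlapping groups (log2 1.1, limma adjusted p = 1), beside -0.71 in white light. EXPA1, the most abundant, had overlapping groups at 165, 233 and 230 TPM against 242, 213 and 247 TPM. For the 13 XTH genes, which cut and rejoin xyloglucan, the median was 0.05, and XTH4 and XTH24 differed by 0.19 and 0.40. The PRE genes, small bHLH proteins that promote elongation, had a median of -0.17, between -0.23 and -0.07 over the alternatives. Of these 6 genes 0 were called and 0 had an unadjusted p under 0.05, beside 0.0409% and 2.75% of all genes tested.

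Nitrate reductase genes led the nutrient lists. NIA2 was at 498, 501 and 463 TPM in Col-0 shade and at 765, 590 and 791 TPM in bzip59 shade, higher in every mutant library (log2 0.54, 95% interval 0.17 to 0.91, unadjusted p = 0.00779, limma adjusted p = 1). NIA1 was at 235, 235 and 222 TPM against 347, 276 and 349 TPM, again without overlap (log2 0.48, unadjusted p = 0.0476, limma adjusted p = 1). In white light both were on the lower side (log2 -0.29 and -0.37). Nitrite reductase, the next enzyme of the pathway (NIR1), overlapped at 283, 207 and 201 TPM against 230, 282 and 263 TPM. The 10 tested nitrate and phosphate genes had a median of 0.16, and the 14 iron genes a median of -0.15. Ferritin genes FER1 and FER3 differed by -0.19 and 0.01. Heat shock genes had a median of 0.21. Their 8 tested members held 0 calls and 0 with an unadjusted p under 0.05, beside 0.0409% and 2.75% of all genes tested.

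Of the 7 group I bZIP genes tested, bZIP59 was the only one called and the only one at an unadjusted p under 0.05. The others differed by -0.07 to 0.10. VIP1 was at 45.8, 50.0 and 51.1 TPM in Col-0 shade and at 56.5, 45.1 and 51.7 TPM in bzip59 shade (log2 0.05, 95% interval -0.19 to 0.29). BZIP69 was at 17.0, 18.3 and 18.7 TPM against 19.1, 17.9 and 21.2 TPM (log2 0.10). The LBD callus genes LBD16 and LBD29 differed by 0.24 and -0.35, both with overlapping groups.

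**Figure D5:**
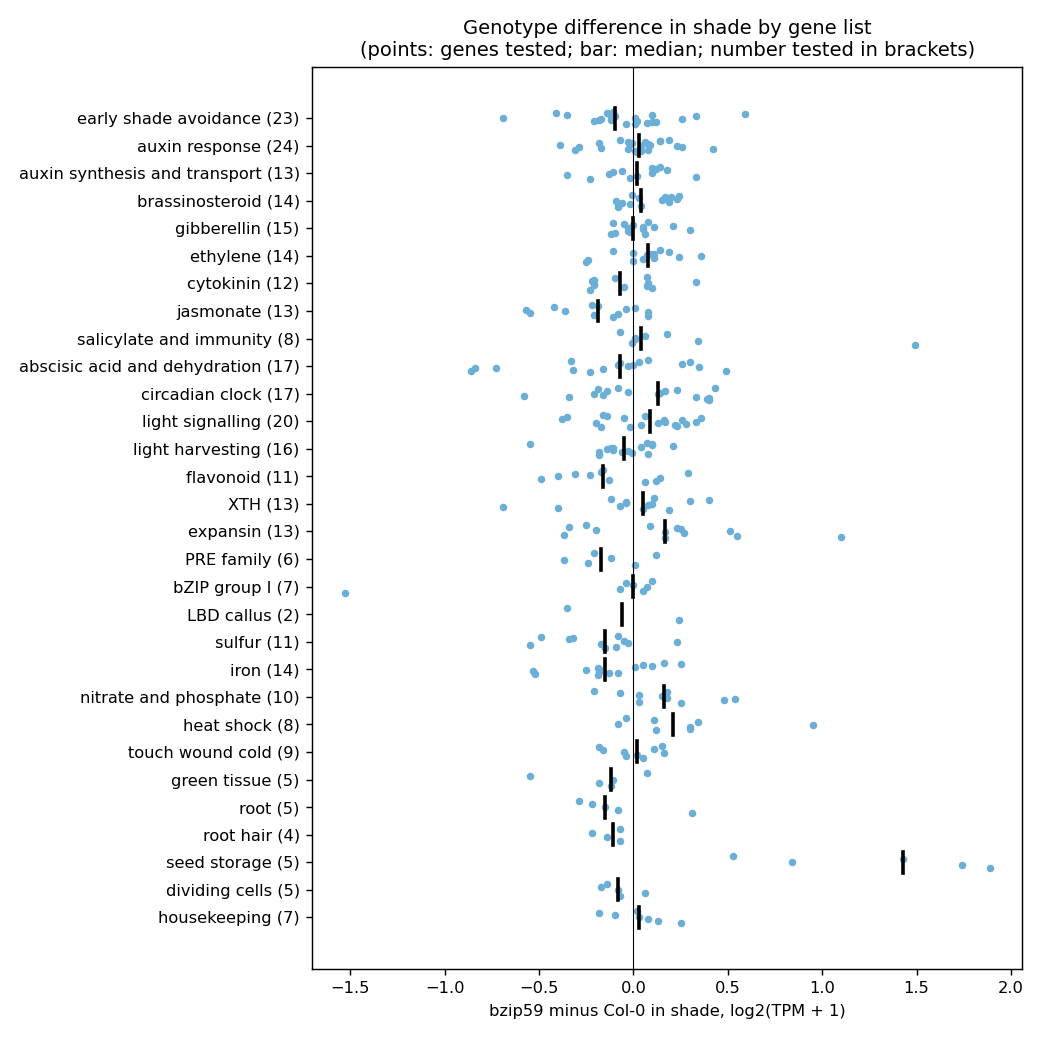
Each point is a tested gene of a list, placed by its difference bzip59 minus Col-0 in shade on the log2(TPM + 1) scale, and the bar marks the list median. Medians lie between -0.19 and 0.21 except for seed storage, at 1.43. In that list 5 of 10 genes were tested, and a gene could pass the filter through the mutant libraries alone. The bZIP59 point at -1.53 stands alone in its list.

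Markers of leaf, root, root hair and cell division were all present in both genotypes, as the label of whole seedlings implies, and their summed levels overlapped. Green tissue markers summed to 29038, 38871 and 37337 TPM in Col-0 shade and to 32184, 29929 and 32960 TPM in bzip59 shade. Root markers summed to 3113, 2321 and 2921 TPM against 2438, 2932 and 2372 TPM, and dividing-cell markers to 237, 213 and 235 TPM against 199, 243 and 193 TPM. Seed storage transcripts were the exception: they summed to 10, 6.48 and 4.26 TPM in Col-0 shade and to 89.3, 21.1 and 5.45 TPM in bzip59 shade. Only bzip59 shade 1 and 2 exceeded the wild-type range, and the third mutant library lay inside it. In white light all 3 bzip59 libraries, at 215, 67.2 and 44.9 TPM, were above the Col-0 libraries at 19.3, 16.4 and 13.4 TPM. CRA1, a seed storage globulin, was at 1.37, 0.63 and 0.33 TPM against 44.4, 3.76 and 0.20 TPM. Of 10 seed storage genes, 5 passed the filter and were tested. The filter used the mean over both genotypes, so a gene could pass through high mutant values alone. CRA1, for example, had a Col-0 shade mean of 0.78 TPM. The 5 tested genes had a median of 1.43, which this filter can raise, with 0 called and 0 at an unadjusted p under 0.05. Their median in white light was 2.3. In whole seedlings, fewer cells of a type and less RNA per cell cannot be told apart. How the seed storage values relate to other genes was not tested.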

How the data were processed

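The authors deposited a table of TPM for each annotated transcript and library. The submitters' processing notes name fastp, cutadapt, HISAT2 and DESeq2, with TAIR10 as the genome build. The tool that computed TPM and the strandedness were not given in the sources used here. TPM keeps no read counts, so depth is unknown and the planned count test was not run. From 18950 to 19689 genes per library were at 1 TPM or more. The 54013 transcripts were summed by gene into 32833 genes. RefSeq (TAIR10.1) held 32548 of them and gave symbols, biotypes and gene order.

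A limma 3.58.1 fit with an intensity trend (R 4.3.3) on log2(TPM + 1) gave 4 group means over 12 libraries with 8 residual degrees of freedom, and adjustment ran over all 19551 genes. This scale understates changes of low genes. The fit was also run on simulated data, with changes added only to genes well above the filter in Col-0 shade. That run does not cover genes that are low in Col-0, such as AT1G75945, AT4G06665 and AT3G57940. Named were bZIP59, all called genes, the 10 next by p, its 2 neighbours on each side, and of each list its called genes or the 2 most abundant (1 of these is not reported here); other genes were chosen after their values were seen. The members and lists were chosen with earlier results of these data known. Alternatives changed the pseudocount (0.1 or 0.5), the filter, scaling (TMM factors, computed with own code for the trimmed mean of M-values in place of the package function planned, or quantile), the variance prior, the libraries in the fit and the replicate block. A planned look at promoter motifs was not done here. Figures were drawn with matplotlib 3.10.9 in Python 3.11.15.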

Additional observations from a re-analysis of the deposited data

How the results depend on the processing

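The number of called genes, 8, stayed between 6 and 9 under other pseudocounts, filters, scalings, variance priors and with protein-coding genes only. With 1 library left out it ranged from 5 (without bzip59 shade 1) to 10. It was 2 with the 6 shade libraries alone (4 residual degrees of freedom). The members were less stable than the count. With a shade library left out, 4 to 7 of the 8 genes kept their call, and with a white-light library left out 7 or 8 did. Without bzip59 shade 2, 7 genes were called, of which 3 were not among the 8. Same-numbered shade libraries did not deviate together (correlations -0.14, -0.12 and 0.04), and differently numbered ones had correlations from -0.08 to 0.16. With 3 libraries a group, these values cannot decide whether the numbers pair the libraries. With a replicate block 8 genes were called from 12 libraries and 1 from the 6 shade libraries. The bZIP59 difference of -1.53 was no longer called in the fit of 6 shade libraries (-1.53, limma adjusted p = 0.0575), in that fit with the replicate block (-1.53, 0.641) and without Col-0 shade 1 and bzip59 shade 2 (-1.33, 0.327), and ran from -1.63 to -1.43 with 1 library left out. Those fits have fewer residual degrees of freedom. Of the 8 genes called in shade, the number also called in white light, 5, ranged from 3 to 6 with 1 library left out. White-light calls outside those 8 were not counted in these alternatives. No called gene changed sign in the alternatives run, and only the other scalings could have changed one. The shade groups of all 8 did not overlap, so no other alternative could reverse a difference of group means. TPM without counts and 3 libraries a group limit what could be detected.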

Other observations

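Small non-coding genes were unevenly listed among the shade libraries. Of 108 tested genes with a value in a single shade library, 2, 2 and 5 had it in Col-0 shade 1, 2 and 3, and 5, 89 and 5 in bzip59 shade 1, 2 and 3. The 89 genes of bzip59 shade 2 had a median of 27.9 TPM there, between 6.23 and 364 TPM, and 82 of them were at 0 in all 6 white-light libraries. Some genes named here after their values were seen had the other pattern, present in Col-0 shade and listed at 0 in 2 mutant libraries. The spliceosomal RNA gene U5.5 (AT1G05853) was at 42.5, 147 and 209 TPM in Col-0 shade and at 0.00, 103 and 0.00 TPM in bzip59 shade. The snoRNA gene AT1G05917 was at 51.3, 41.7 and 156 TPM against 0.00, 216 and 0.00 TPM. U6.5 (AT4G08755) was at 99.3, 40.5 and 37.2 TPM against 0.00, 126 and 0.00 TPM. U5.5, AT1G05917 and U6.5 were all at 0 in every white-light library of both genotypes. AT2G01021, annotated as protein-coding with unknown function and the gene with the largest negative difference of all (log2 -6.75, limma adjusted p = 1), was at 531, 722 and 537 TPM against 0.00, 166 and 0.00 TPM. In white light AT2G01021 was at 0.00, 0.00 and 90.2 TPM in Col-0 and at 0 in all bzip59 libraries. Libraries were selected on oligo(dT) beads, per the labels' protocols, and most small RNAs carry no poly(A) tail. What part library preparation has in these values was not tested.

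Another 4 genes were looked up after the values were seen, and none passed the test. The defensin-like gene PDF1.1 was at 0.65, 0.35 and 0.20 TPM in Col-0 shade and at 101, 16.1 and 3.5 TPM in bzip59 shade (log2 3.84, limma adjusted p = 0.938), and its white-light difference was 3.60 (limma adjusted p = 0.193). Its Col-0 shade mean was 0.40 TPM, so it passed the filter through the mutant libraries. The cysteine protease gene CP1 was at 21.0, 7.96 and 8.18 TPM against 49.5, 33.5 and 37.1 TPM, with no overlap (log2 1.73, limma adjusted p = 1), beside a white-light difference of 0.52. DEG15, the protease that processes proteins imported into glyoxysomes, was at 7.42, 6.66 and 4.74 TPM against 9.64, 11.1 and 13.7 TPM (log2 0.78, limma adjusted p = 1), beside 0.06 in white light. PCKA, the carboxykinase that turns the products of fat breakdown into sugar, overlapped at 129, 101 and 129 TPM against 140, 128 and 123 TPM (log2 0.13, and -0.19 in white light).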
